A study of Mus musculus with 8 samples.

Results

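The genes of the actin cytoskeleton and of the smooth-muscle contractile apparatus were followed on 8 Illumina bead arrays of mouse embryonic fibroblasts (MEFs). The module held 36 genes: 12 muscle-type genes, 23 general cytoskeletal genes and Srf, which encodes a regulator of many of them. Each gene was read from its brightest probe with a detection p-value under 0.05 on at least 2 arrays. By this rule 29 of the 36 genes were measured, of 10214 features on the arrays, namely 9 muscle-type genes, 19 general genes and Srf. Tagln2, Tpm4, Myl9, Flna and Flnc were not named by any probe of the platform annotation. The probes of Actc1 and Actg1 were not detected on any array.

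The cells came from embryos of day 13.5, with C57BL/6 given as the background. E2F3 L430Q cells, called LQ here, carried a leucine-to-glutamine change in the Rb-binding domain of the transcription factor E2F3, homozygous per the study's methods, and WT cells came from littermates of the same LQ/+ crosses. Mox2Cre mice were used to remove the neomycin cassette from the LQ allele. Each genotype had 2 clones, LQ clones 2 and 4 and WT clones 1 and 16, and each clone was measured once after 72 h of serum starvation and once while proliferating in 10% FBS. The 4 groups, LQ starved, LQ proliferating, WT starved and WT proliferating, thus held 2 arrays each, and the spread behind every p-value is that between clones, whose embryos of origin are not stated. The labels give no FBS for starvation, whereas the methods of the BrdU assay name a low serum level. Values for a pair of clones are always given in the order 2 and 4 for LQ and 1 and 16 for WT.

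Actin is the protein of the thin filament, and mammals have 6 actin genes: Acta1 and Actc1 for striated muscle, Acta2 and Actg2 for smooth muscle, and Actb and Actg1 for all cells. Serum response factor, SRF, the product of Srf, binds the CArG box in the promoters of many of these genes. Its cofactors of the MRTF family are held in the cytoplasm by monomeric actin, and serum releases them through actin polymerization. Fibroblasts in culture with serum commonly form stress fibers that contain smooth-muscle actin, transgelin and tropomyosin, as myofibroblasts do.

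To show where the binding motif of SRF lies, the CArG box was searched in RefSeq promoter windows (mouse build GRCm38.p6, 250 bases before to 50 after each annotated start). A window was on hand for 33 of the 36 genes, and none for Actg2, Actb and Tagln. Only exact matches (CC, 6 bases of A or T, GG) were counted, so near matches and boxes outside the window are missed. The motif, 10 bases long and the same on both strands, occurred in 8 of the 33 genes (24.2%), against 488 of 27025 genes in all (1.81%). It was found in 3 of 10 muscle-type genes and in 4 of 22 general genes. Srf itself held 2 boxes. A match of this kind is a description of the letters and was not tested for binding. The 100-base stretches below, written 5′ to 3′ on the strand of the gene with the box in capitals, are shown for the regulator, for the muscle-type gene that fell most, for a general gene that fell and for a general gene that did not pass the test.
Srf, chr17:46556163-46556262, minus strand, 100 to 1 bases before the start: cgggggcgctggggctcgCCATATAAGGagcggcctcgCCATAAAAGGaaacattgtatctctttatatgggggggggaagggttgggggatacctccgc
Acta1, chr8:123894776-123894875, minus strand, 100 to 1 bases before the start: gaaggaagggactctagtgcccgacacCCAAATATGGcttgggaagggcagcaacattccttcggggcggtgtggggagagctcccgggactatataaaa
Cnn2, chr10:79988500-79988599, plus strand, 100 to 1 bases before the start: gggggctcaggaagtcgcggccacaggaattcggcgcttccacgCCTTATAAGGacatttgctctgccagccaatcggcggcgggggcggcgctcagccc
Vcl, chr14:20929148-20929247, plus strand, 250 to 151 bases before the start: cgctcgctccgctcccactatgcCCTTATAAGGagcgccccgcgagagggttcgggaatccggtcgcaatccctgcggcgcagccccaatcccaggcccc

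Cnn2 and Vcl held the identical 10 bases at different distances from the start. The other 4 genes with a box held it at 47, 90, 161 and 50 bases before a start, counted to its first base.
Actc1: CCAAATAAGG
Actg1: CCATATATGG
Myl9: CCTAATAAGG
Myl6: CCTTATATGG

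The E2F motifs TTTCCCGC and TTTGGCGC, searched on both strands, occurred in 1 of the 33 genes (Cnn2), against 1.8% of all genes. Of the 5 measured genes with a CArG box, Acta1, Cnn2 and Myl6 fell on serum starvation, and Srf and Vcl did not pass the test. Of all 29 measured genes 69% were called lower, and of all features 11.5%. A link between the box and the fall was not tested. For Srf the matched start lies inside the annotated span of the gene, since another annotated start lies upstream.

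On each array 12141 to 12420 of 25697 probes (47.2% to 48.3%) were detected. The array of proliferating LQ clone 2 stood apart, with 685 features more than 2-fold away from the average of its 3 counterparts, against 103 to 223 for each of these. Several results that rest on it are given with and without it. All 12 fibroblast markers with a probe were measured, and 11 of them were detected on every array. The genotype labels were not checked against the arrays.

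Serum starvation lowered most of the module. Averaged over both genotypes, 20 of the 29 genes were lower in starved than in proliferating cells and 1, Gsn, was higher at an adjusted p under 0.05 (limma), which is 72.4% of the genes measured. Over all features the share called was 22.4%, with 11.5% lower and 10.9% higher (1172 and 1116 features, or 1479 and 538 with median scaling of the arrays, which left 22 genes of the module called). The muscle-type genes moved most: 7 of 9 were called lower, with a median log2 fold change of -1.73. Of the general genes 13 of 19 were called lower and 1 higher, with a median of -0.63, while the median of all features was 0.0011. In bulk RNA a smaller number of cells that express a gene and a lower level in each cell cannot be told apart. In all 4 clones the starved array was below the proliferating one for 22 of the 29 genes, against 23.7% of all features, and 7 genes fell by more than 1 on the log2 scale in every clone, against 0.911% of all features. The number of calls depended on the WT clones and fell sharply when both arrays of either were left out, as given in the closing section. Those fits hold 2 residual degrees of freedom and a lone WT clone, and a loss of calls there does not show a fall limited to WT. Without both arrays of LQ clone 2, 22 genes were lower and 1 was higher. The log2 fold changes themselves kept their direction, at -3.32 for Acta1 and 3.77 for Gsn without clone 1.

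Among the actins, Acta1, which encodes skeletal muscle alpha-actin, fell most. Its log2 signals in starved cells were 4.35 and 5.53 in LQ and 5.16 and 5.34 in WT, against 8.27 and 8.32 in proliferating LQ and 10.09 and 8.63 in proliferating WT cells. No starved array came within reach of a proliferating one. This is a log2 fold change of -3.73 (SE, the standard error of the fit, 0.36, adjusted p = 0.00152), the lowest of all 10214 features. Raw intensities in starved cells were close to background, and the probe was not detected on the starved array of LQ clone 2, so the size depends on the background correction. Without any correction it was -1.99, still past the threshold.

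Actg2, the enteric smooth-muscle gamma-actin, gave 8.70 and 8.18 in starved LQ and 8.46 and 8.44 in starved WT cells, against 10.56 and 11.10 in proliferating LQ and 11.74 and 11.21 in proliferating WT cells. The groups were far apart, with a log2 fold change of -2.71 (SE 0.19, adjusted p = 0.000661). It had the fourth lowest value of all features.

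Acta2, the smooth-muscle alpha-actin that marks myofibroblasts, gave 13.89 and 13.34 in starved LQ and 13.95 and 13.63 in starved WT cells, against 14.48 and 14.64 in proliferating LQ and 15.02 and 14.81 in proliferating WT cells. Its log2 fold change was -1.03 (SE 0.16, adjusted p = 0.00605). This is the brightest probe of Acta2, which reached an intensity of 36748.5 and was the brightest spot of its array. The 3 dimmer probes of Acta2 gave log2 fold changes of -1.67, -2.04 and -2.01, so the size of the fall depended on the probe and its direction did not. Whether the brightest probe was near saturation was not tested.

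Actb, the cytoplasmic beta-actin of all cells, gave 12.83 and 12.87 in starved LQ and 13.18 and 13.09 in starved WT cells, against 13.77 and 13.79 in proliferating LQ and 14.03 and 13.82 in proliferating WT cells. Its log2 fold change was -0.86 (SE 0.10, adjusted p = 0.00281), with no overlap. The 5 Actb probes went different ways. Among the other bright probes 1 gave -1.02 and 1 gave 0.33, and the 2 dimmest gave 1.87 and 2.03. The raw intensity of the dimmest probe was 238.3 and 288.3 in starved LQ and 284.3 and 298.8 in starved WT cells, against 148.7 and 180.8 in proliferating LQ and 144.1 and 186.1 in proliferating WT cells. It was higher on each starved array. All 5 probes are assigned to the same Actb transcript by the platform annotation, and which of them reads it was not tested. With the mean of the 5 probes Actb was at 0.47 and no longer lower.

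Actc1 (cardiac alpha-actin) was covered by 2 probes and Actg1 (cytoplasmic gamma-actin) by 1. Their raw intensities lay between 99.4 and 117.6 on the 8 arrays, within the background, so no change can be given for them. Gamma-actin is a major actin of fibroblasts, and a single probe at background does not bear on its expression.

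Of the other 6 muscle-type genes, Tagln, Des, Lmod1 and Tpm2 fell, and Ankrd1 and Cnn1 did not pass the test. Tagln, which encodes the actin-bundling protein transgelin, gave 7.88 and 7.33 in starved LQ and 7.87 and 7.39 in starved WT cells, against 9.45 and 10.23 in proliferating LQ and 11.07 and 10.09 in proliferating WT cells. Its change was -2.59 on the log2 scale (SE 0.28, adjusted p = 0.00216). All starved arrays of Tagln lay close together, and the proliferating ones were spread over more than 1 unit, with WT clone 1 highest.

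Des encodes desmin, the intermediate filament protein of muscle. It gave 5.18 and 5.19 in starved LQ and 5.20 and 5.08 in starved WT cells, against 6.34 and 7.56 in proliferating LQ and 7.96 and 7.34 in proliferating WT cells, a log2 fold change of -2.14 (SE 0.27, adjusted p = 0.00317). The starved arrays lay close together, but at raw intensities of 115 to 129, near background, although the probe was detected on all 8 arrays. Without background correction the change was -0.90. The lowest proliferating array was that of LQ clone 2.

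Lmod1, the smooth-muscle leiomodin that nucleates actin, gave 6.33 and 5.70 in starved LQ and 6.21 and 5.94 in starved WT cells, against 6.54 and 7.07 in proliferating LQ and 7.93 and 7.40 in proliferating WT cells. This amounts to -1.19 on the log2 scale (SE 0.21, adjusted p = 0.00936). Its groups did not overlap, but in LQ clone 2 the fall was only 0.21, against 1.37 to 1.72 in the other clones.

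Tpm2, the beta-tropomyosin of muscle, gave 10.08 and 10.06 in starved LQ and 10.06 and 9.80 in starved WT cells, against 10.60 and 11 in proliferating LQ and 11.23 and 10.97 in proliferating WT cells (log2 fold change -0.95, SE 0.14, adjusted p = 0.00506). A dimmer probe gave -0.88.

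Ankrd1, a nuclear and sarcomeric protein of muscle that responds to stretch and is a target of YAP, had a log2 fold change of -1.73 that did not reach the threshold (SE 0.56, adjusted p = 0.0646). Its signals were 8.47 and 6.31 in starved LQ and 8.26 and 7.21 in starved WT cells, against 9.57 and 8.63 in proliferating LQ and 10.21 and 8.75 in proliferating WT cells. The starved and proliferating groups did not overlap, but clones of 1 genotype differed by up to 2.16. Within clones the change was -1.10, -2.32, -1.95 and -1.53 for clones 2, 4, 1 and 16, and with the clone as a block the gene was called lower. Cnn1, the smooth-muscle calponin, was the ninth muscle-type gene. It was detected on 2 arrays only, and its log2 fold change of 0.15 (95% interval -0.21 to 0.52) comes from raw intensities of 107.7 to 119.8.

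Among the general genes the non-muscle myosins, the motors of stress fibers and of cytokinesis, moved unequally. Myh10, the heavy chain of non-muscle myosin IIB, gave 8.39 and 8.64 in starved LQ and 8.31 and 8.27 in starved WT cells, against 10.43 and 11.33 in proliferating LQ and 11.41 and 11.40 in proliferating WT cells. Its log2 fold change was -2.74 (SE 0.20, adjusted p = 0.000661), a 6.68-fold lower signal in starved cells. Myh9, the heavy chain of myosin IIA, fell by 0.75 (SE 0.11, adjusted p = 0.00477), and the intervals of these changes, -3.20 to -2.28 for Myh10 and -0.99 to -0.50 for Myh9, did not meet.

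Myl6, an essential light chain of non-muscle and smooth-muscle myosin, gave 11.76 and 11.68 in starved LQ and 11.72 and 11.69 in starved WT cells, against 12.65 and 12.78 in proliferating LQ and 12.86 and 12.43 in proliferating WT cells. It fell by 0.97 on the log2 scale (SE 0.13, adjusted p = 0.0035). The 4 starved arrays were nearly equal.

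Tropomyosins and caldesmon bind along the actin filament and govern the access of myosin. Tpm1, alpha-tropomyosin, gave 12.38 and 12.11 in starved LQ and 12.45 and 12.03 in starved WT cells, against 12.96 and 13.21 in proliferating LQ and 13.60 and 13.19 in proliferating WT cells, a log2 fold change of -1.0 (SE 0.16, adjusted p = 0.00694). Cald1, caldesmon, gave 6.28 and 5.84 in starved LQ and 5.73 and 6.19 in starved WT cells, against 6.71 and 7.12 in proliferating LQ and 7.08 and 6.83 in proliferating WT cells, a log2 fold change of -0.92 (SE 0.18, adjusted p = 0.0117). Neither gene had an overlap between starved and proliferating arrays. Tpm3 fell by 0.43 on the log2 scale and was the weakest call of the module (adjusted p = 0.0339), lost with the clone as a block. Of the calponins, Cnn2 fell by 0.60 (SE 0.10, adjusted p = 0.00808), and Cnn3 had a log2 fold change of -0.13 (95% interval -0.71 to 0.46).

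The alpha-actinins crosslink actin filaments. Actn4 gave 10.11 and 9.84 in starved LQ and 10.16 and 10.04 in starved WT cells, against 10.99 and 10.79 in proliferating LQ and 11.45 and 10.89 in proliferating WT cells, a log2 fold change of -1.0 (SE 0.16, adjusted p = 0.00619). Its 2 dimmer probes gave -0.74 and -0.90. Actn1 fell by 0.52 (SE 0.14, adjusted p = 0.0337). The focal adhesion genes did not pass the test. Vcl (vinculin), Tln1 (talin) and Zyx (zyxin) had log2 fold changes of -0.29, -0.18 and 0.14, and their starved and proliferating arrays overlapped. Tln1 was detected on all 8 arrays, but its raw intensities of 113.5 to 156.1 were near background, which limits what its value shows. For Vcl the 4 clones did not move alike, with 0.64 in LQ clone 2, -0.79 in LQ clone 4, -0.46 in WT clone 1 and -0.54 in WT clone 16.

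Among the genes of filament turnover 1 rose. Gsn encodes gelsolin, which severs and caps filaments. It gave 9.54 and 8.97 in starved LQ and 10.22 and 9.52 in starved WT cells, against 4.92 and 5.54 in proliferating LQ and 6.42 and 5.99 in proliferating WT cells. Gsn thus changed by 3.84 on the log2 scale (SE 0.24, adjusted p = 0.000537), a 14.3-fold higher signal in starved cells and the tenth highest value of all features. Without background correction the change was 2.39. It was the only gene of the module called higher.

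Pfn1, profilin, which loads actin monomers with ATP, gave 10.20 and 10.36 in starved LQ and 10.47 and 10.36 in starved WT cells, against 11.09 and 11.36 in proliferating LQ and 11.20 and 11.38 in proliferating WT cells. It fell by 0.91 on the log2 scale (SE 0.12, adjusted p = 0.0035), with -1.26 for a dimmer probe. Cfl1, the filament-severing cofilin, fell by 0.63 (SE 0.14, adjusted p = 0.0213), while the related Dstn (destrin) was at -0.17 (95% interval -0.58 to 0.25).

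Dctn1 encodes the large subunit of dynactin, a partner of the microtubule motor dynein. Dynactin contains a short filament of an actin-related protein. Dctn1 gave 6.09 and 6.42 in starved LQ and 6.21 and 6.27 in starved WT cells, against 8.85 and 8.96 in proliferating LQ and 9.28 and 8.73 in proliferating WT cells. The log2 fold change of -2.71 (SE 0.15, adjusted p = 0.000392) had the smallest p of the module.

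Srf itself did not pass the test. Its signals were 8.37 and 8.49 in starved LQ and 8.53 and 8.48 in starved WT cells, against 8.41 and 8.53 in proliferating LQ and 8.76 and 8.42 in proliferating WT cells. The log2 fold change was -0.07 (95% interval -0.35 to 0.21, adjusted p = 0.719). A dimmer Srf probe, detected on 4 arrays, gave -0.68, and the mean of both probes was at -0.37, also not past the threshold.

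Other genes of the pathway were taken from lists chosen by function, and their counts stand beside 11.5% of all features called lower and 10.9% called higher. Of the SRF cofactors, 5 of 11 were measured and 1 was lower in starved cells, Fhl2, a LIM protein that binds SRF, with a log2 fold change of -1.53 (SE 0.28, adjusted p = 0.00989). Fhl1 was at -0.72 and Mrtfa, an MRTF cofactor, at -0.34, neither past the threshold. Of other known SRF or MRTF targets 12 of 22 measured genes were lower and 1 was higher, with a median of -0.64. The lowest p belonged to Mylk (myosin light chain kinase, -2.27), Fblim1 (migfilin, -1.48) and Pdlim7 (-1.06), and Myh11, the smooth-muscle myosin heavy chain, was at -1.67, with 1 of 4 starved arrays detected, so that its starved signal is mostly background. The immediate early genes on this list did not move alike. Ccn1 and Ccn2, which encode matricellular proteins, fell by 1.02 and 1.96 on the log2 scale (adjusted p = 0.0194 and 0.00384). Fosb was at -0.59 and Egr2 at -0.32 (adjusted p = 0.0885 and 0.474), with no overlap of starved and proliferating arrays for Fosb. Fos, Egr1, Egr3 and Junb had log2 fold changes of -0.01, -0.01, 0.01 and 0.11 with adjusted p-values of 0.866 to 0.98.

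Of the Arp2/3 complex and the factors of actin turnover, 11 of 27 were lower and 1 higher, against 11.5% and 10.9% of all features. The smallest p-values belonged to Msn (moesin, which ties actin to the membrane, -1.96), Cap1 (-0.90) and Coro1c (-0.72), and Ezr (ezrin, a relative of moesin) fell by 1.32 on the log2 scale. Their median was -0.40, against -0.63 for the general genes of the module.

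Markers of other cell types moved with the serum effect in part, and their part in the changes of the module was not tested. The 8 measured markers of smooth muscle and pericytes, of 11 with a probe, had summed signals of 1130 to 1334 in starved LQ and 1054 to 1125 in starved WT cells, against 1309 to 1663 in proliferating LQ and 1832 to 2185 in proliferating WT cells. Myocd, the defining cofactor of smooth muscle, and the pericyte markers Rgs5 and Heyl did not pass the filter. Of these 8 markers Myh11, Smtn, Cspg4 and Mcam were called lower, Notch3 was higher by 1.23 on the log2 scale, and Synm was at 0.82 without passing the test. Myh11 and Smtn are themselves SRF targets. The 7 measured markers of skeletal and cardiac muscle, of 20, had sums between 411.8 and 491.5 on the 8 arrays, with overlap of starved and proliferating cells, and Myod1, Myf5, Myf6, Ckm and Ttn did not pass the filter. Of the fibroblast markers 3 were lower and 4 higher in starved cells, with sums of 29480 to 35160 in starved LQ and 29610 to 31420 in starved WT cells, against 25530 to 25660 in proliferating LQ and 26270 to 27670 in proliferating WT cells. Of 13 macrophage markers 6 were lower (median -0.67), among them C1qa, C1qb, C1qc and Mrc1, but their sums overlapped, with 1587 to 3539 in starved LQ and 4465 to 4501 in starved WT cells, against 1026 to 5473 in proliferating LQ and 3369 to 7209 in proliferating WT cells. Of 6 endothelial markers 2 were lower and 1 higher, of 5 neural and glial markers 2 were lower (Nes and Ncam1), and of 3 epithelial markers 1 was lower.

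The serum change was then taken within each genotype from the same fit. In LQ cells 9 genes of the module were called lower and 1 higher, against 2.14% and 2.46% of all features (4.6% in all). In WT cells 17 were called lower and 1 higher, against 4.3% and 3.87% of all features (8.17% in all). Both counts depended strongly on single arrays, as given in the closing section. A larger count in WT does not show a larger change, and no gene of the module passed the test of the difference (interaction): 0 of 29, as for all features (0%), with 1 gene, Cnn2, at an unadjusted p under 0.05, against 1.53% of all features. The point estimates leaned one way. For 24 of 29 genes the interaction was positive, against 5497 of 10214 features in all (median 0.023). A positive value means that the change was less negative or more positive in LQ. All genes were read on the same 8 arrays, so their signs are not independent. The interaction was positive for all 9 muscle-type genes, among them Cnn1, near background, at 0.07. Their median was 0.63. This median was 0.32 without the proliferating array of LQ clone 2, 0.23 without that of WT clone 1 and 0.14 without both arrays of LQ clone 2. The interaction uses the same arrays as the genotype contrasts, so these are not separate evidence.

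By clone, the median change of the muscle-type genes was -1.10 in LQ clone 2 and -2.32 in LQ clone 4, against -1.95 in WT clone 1 and -1.53 in WT clone 16. The clones of LQ thus lay on either side of both WT clones. The general genes gave -0.43 and -0.54 in LQ, against -0.76 and -0.73 in WT, with no overlap between the genotypes. This order of 2 clones against 2 was not tested. The 4 smallest p-values of the interaction were those of Cnn2 (0.55, SE 0.20, adjusted p = 1), Myh9 (0.50), Myh10 (0.75) and Lmod1 (0.80). Without the proliferating array of LQ clone 2, the median interaction of the general genes was 0.056, against 0.16 with it. Over single arrays left out it ranged from 0.022 to 0.37, and without both arrays of LQ clone 2 it was -0.023.

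In proliferating cells LQ was set against WT. No gene of the module, and no feature at all (0%), passed the adjusted threshold in limma. The methods' t-test also called 0. In limma 4 of 29 genes had an unadjusted p under 0.05, all lower in LQ, against 2.83% of all features, and in the t-test 2 did. The count rests on single arrays and on the scaling: it was 0 with median scaling, 0 without the proliferating array of WT clone 1, 1 without that of LQ clone 2 and 12 without that of LQ clone 4, where 1922 of all features had such a p. The log2 fold change was negative for 27 of 29 genes, against 5648 of 10214 features in all. Without the proliferating array of LQ clone 2 it was negative for 26 of 29 genes, against 4852 of 10214 features. The LQ clones lay below both WT clones for 12 of the 29 genes, against 12.3% of all features, and above for 0, against 9.54%. These counts were not repeated without LQ clone 2. The muscle-type median was -0.64 and the general median -0.28, while that of all features was -0.025. With median scaling the general median was -0.14 and that of all features 0.12.

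The 4 genes with the smallest p were Gsn, Myh9, Lmod1 and Cnn2. Gsn, as given above, was lower in both LQ clones after normalization, with a log2 fold change of -0.98 (SE 0.34, adjusted p = 0.999). It was at -0.32 without background correction and at -0.67 without the proliferating array of LQ clone 2. Its raw intensities were near background, at 135.8 and 152.7 in proliferating LQ, against 191.4 and 148.9 in proliferating WT cells. Before normalization LQ clone 4 was thus not below WT clone 16. Myh9 gave 11.11 and 11.11 in proliferating LQ, against 11.52 and 11.56 in proliferating WT cells, with agreement between clones of 1 genotype and a log2 fold change of -0.43 (SE 0.15, adjusted p = 0.999). Lmod1 was at -0.86 (SE 0.30), or -0.59 without the proliferating array of LQ clone 2. Cnn2, with 8.51 and 8.51 in LQ, against 8.85 and 8.95 in WT, was at -0.39 (SE 0.14).

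The lower signals in proliferating LQ cells were carried unevenly by the arrays. LQ clone 2 was the lowest of the 4 proliferating arrays for 20 of 29 genes, against 41.1% of all features, and WT clone 1 was the highest for 22 of 29, against 20% of all features. All 9 muscle-type genes were higher in WT clone 1 than in WT clone 16, by a median of 0.53 and by up to 1.46 for Acta1 and Ankrd1. Cnn1, near background, is counted among them with a difference of only 0.009. Against the WT mean the muscle-type median was -0.91 in LQ clone 2 and -0.35 in LQ clone 4. Without the proliferating array of LQ clone 2 it was -0.35 and the general median was -0.13. Without that of WT clone 1 these were -0.25 and -0.11. The 13 measured macrophage markers, which differ widely among these cultures, summed to 5473 and 1026 in proliferating LQ clones 2 and 4, against 7209 and 3369 in proliferating WT clones 1 and 16. The part of these differences in the result was not tested.

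In starved cells LQ was set against WT in the same way. No gene of the module and no feature (0%) passed the threshold in limma, and 0 of 29 genes had an unadjusted p under 0.05, against 2.21% of all features, while in the t-test 1 gene did and 0 were called. The median was -0.059 for muscle-type and 0.0029 for general genes. The LQ clones lay below both WT clones for 3 genes and above for 2, against 16.9% and 17% of all features. The smallest p-values were those of Actb (-0.28, SE 0.15), Gsn (-0.62, SE 0.34), Zyx (-0.27, SE 0.18) and Cnn2 (0.16, SE 0.14), all at an adjusted p of 1. Without the starved array of WT clone 1 Gsn was at -0.27, and without that of LQ clone 4 Zyx was at -0.13. Zyx gave 13.50 and 13.21 in starved LQ, against 13.62 and 13.64 in starved WT cells.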

How the data were processed

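Probes were measured on 8 bead arrays of MEFs, and groups were taken from the sample labels. The authors deposited a signal intensity per probe and array, raw as far as the values show (no shared distribution, no negative values), together with a detection p-value for each (GenomeStudio per the methods; settings not given in the sources used here). Their processed intensity table, background-subtracted and quantile-normalized by its values, served as an alternative. Of 25697 probes 23978 had 1 gene symbol in the platform annotation, 0 several and 1719 none. The methods name a larger array type than this number of probes, which was not settled.

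Intensities were normalized with neqc (limma 3.58.1, R 4.3.3, statmod 1.5.0, offset 16, log2 scale), which understates changes of dim probes. Genes were filtered by detection (p-value under 0.05 on at least 2 arrays) and read from the brightest probe. A model of the 4 groups was fitted with lmFit and eBayes (4 residual and 3.27 prior degrees of freedom), and p-values were Benjamini-Hochberg adjusted over 10214 features, with a threshold of 0.05. An exact permutation test of 2 clones against 2 cannot give a two-sided p below 0.333. The genes of the module, their classes and the lists were chosen with earlier results of these data known, so no p is adjusted over a list. Values on every array are given for Srf, the measured actins and the 16 called genes with the largest serum change. For each genotype contrast and the interaction the 4 smallest p-values are named, and for each pathway list 3 genes. The result of 1 further pathway list is not reported here. Single genes outside this rule were named after their values were seen.

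Starved and proliferating arrays are paired by clone, as the labels give the same clone numbers. Deviations from the group means correlated at 0.29 for LQ and 0.091 for WT. The fit was tested on simulated data. Alternatives were other background corrections and scalings (none, normexp offset 50, median, cyclic loess), the authors' values, other detection filters, the mean of probes, a variance trend, arrays of 1 condition only, blocks by clone or replicate number, the methods' t-test, other class borders, and leaving out each array and clone. Sequences come from RefSeq GRCm38.p6. Figures were drawn with matplotlib 3.10.9.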

Additional observations from a re-analysis of the deposited data

Results flagged for a closer look

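For 2 genes the genotypes differed in opposite directions in the serum conditions, with no overlap of clones in either. In proliferating cells the LQ clones lay below both WT clones for 12.3% of all features and above for 9.54%. In starved cells these shares were 16.9% and 17%. The share of all features with opposite directions was not counted, so these 2 genes cannot be set against it. Cnn2 was higher in starved LQ than in starved WT cells and lower in proliferating LQ than in proliferating WT cells, a difference of 0.55 between the contrasts on the log2 scale. In starved cells it gave 8.24 and 8.13 in LQ, against 8.09 and 7.96 in WT. Its interaction did not pass the test (limma, adjusted p = 1), and a dimmer Cnn2 probe gave an interaction of -0.05. Myh10 showed the same order, with a difference of 0.75 (limma, adjusted p = 1). The proliferating part of Myh10 rests on LQ clone 2, at 10.43, against 11.33 in LQ clone 4 and 11.41 and 11.40 in WT, and without that array the difference was 0.30. No gene was searched for outlying samples within a group, since each group held 2 arrays.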

How the results depend on the processing

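The alternatives, and the lists they were applied to, are those named in the processing summary. The direction of the serum change was kept under every one of them for the 16 called genes given on every array, except Actb, which was at 0.47 with the mean of its probes. Srf, which was not called, was at 0.019 without the proliferating array of WT clone 1 and at 0.0054 without clone 1 (-0.15 to 0.019 over single arrays left out), at -0.28 with median scaling and at -0.37 with the mean of its probes. Cnn2 in starved cells, LQ against WT, was at -0.10 with the mean of its probes, against 0.16.

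Leaving out single arrays gave 16 to 21 genes called lower by starvation, 1 to 10 in LQ and 0 to 18 in WT (main values 20, 9 and 17), and 0 to 1 called higher in WT. For the count over both genotypes a whole clone mattered more. Without clone 1 no gene was called lower (0) or higher (0), in LQ and in WT also 0. Without clone 16 the counts of lower genes were 5 in all, 0 in LQ and 0 in WT, with 0 higher in either genotype, and without clone 4 the count in LQ was 4. These fits hold 2 residual degrees of freedom and a lone clone in 1 genotype, which is taken to vary like the others. For LQ against WT in proliferating cells, 0 to 2 genes were called lower over single arrays left out, with Myh10 and Des called when the array of LQ clone 4 was left out, and 1 without clone 4 (Myh10). In these fits 405 and 433 of all features were called, against 0 with all arrays.

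The general median in starved cells, 0.0029, was -0.074 without clone 2 or its starved array and -0.089 without clone 16 or its starved array (-0.089 to 0.012 over single arrays), and that of the interaction, 0.16, was -0.023 without clone 2. Without background correction the changes of dim probes shrank, to -0.90 for Des, -0.58 for Lmod1, -0.41 for Cald1 and -1.70 for Dctn1. The muscle-type serum median was -1.03 with this setting and -1.19 with Tpm1 and Cald1 counted as muscle-type. Median scaling moved the serum median of all features by -0.13 and the split of all calls to 1479 lower and 538 higher, against 1172 and 1116, with 22 genes of the module called.

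With the clone as a replicate block 21 genes of the module were called by starvation, Ankrd1 in place of Tpm3, with 11 in LQ and 19 in WT, and 0 in the interaction. As a random block (correlation 0.12) the clone gave 22. The replicate numbers shared by LQ and WT clones name no common source (correlations 0.47 in proliferating and 0.18 in starved cells, for 2 numbers only), and blocking on them left 0 calls between genotypes. Signal over background limits Cnn1, detected on 2 arrays, and Acta1, not detected on the starved array of LQ clone 2. It also limits Des in starved cells, Gsn in proliferating cells and Tln1 in both, which were detected but near background.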
